A study of Mus musculus with 24 samples.

Results

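The genes described here are 10 genes that mark the resident macrophages of the mouse liver, the Kupffer cells: Clec4f, Vsig4, Timd4, Cd5l, Marco, C1qa, C1qb, C1qc, Adgre1 and Csf1r. They were chosen by name as well known Kupffer cell genes, with earlier results of these data known. They are 10 of the 21755 genes counted in p16-3MR livers. In wild-type livers 7 of the 10 could be read, among 12643 rows. That table lacks 9 lower-case letters in its gene labels, and a row was used where its label matched exactly 1 mouse symbol. Cd5l, Timd4 and Adgre1 were not used there, since their shortened labels fit 4, 2 and 6 symbols.

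The study asked how livers of aging females and males respond when p16+ cells are removed. Bulk RNA-seq was available for 12 p16-3MR mice and 12 wild-type mice, 3 in each group of sex and treatment. All p16-3MR mice carry a transgene in which the p16 promoter drives a viral thymidine kinase, so ganciclovir (GCV) is toxic to any cell that uses this promoter, whatever its type. Per the labels, p16-3MR mice were 16 to 18 months old when monthly rounds of 5 daily intraperitoneal injections began, with GCV at 150 mg/kg or with vehicle (VEH, alkaline water). The study's methods give another GCV dose. Wild-type mice, which lack the transgene, got the same 2 agents from 6 months of age, and their livers were taken after 3 months. By the study's methods, the p16-3MR livers were taken at a much older age and after a longer course of treatment. The p16-3MR libraries are batch 1 and the wild-type libraries batch 2. Genotype, age, length of treatment and batch thus cannot be told apart, and no test was made between p16-3MR and wild-type livers. The labels do not say how the 3 livers of a group were housed or processed, and each is taken as 1 mouse. Counts of Cdkn2a, the gene that encodes p16, were 0 to 7 per p16-3MR liver, and summed to 3 in GCV females, 8 in VEH females, 8 in GCV males and 3 in VEH males, so the removal of p16+ cells cannot be read from this gene at this depth.

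Kupffer cells line the liver sinusoids and take up microbes, dying cells, platelets and immune complexes from portal blood. Their identity depends on CSF1 receptor signalling, on the factors PU.1, MAF, LXR alpha, ID3 and SPIC, and on Notch and BMP signals from sinusoidal endothelium and stellate cells. Among the genes described here, Clec4f, Vsig4, Timd4, Cd5l and Marco are uptake receptors or secreted proteins found mainly in Kupffer cells of the liver, whereas the C1q chains, Adgre1 and Csf1r are shared with other macrophages. In whole liver RNA, fewer Kupffer cells and less RNA per Kupffer cell cannot be told apart.

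The genes lie on 8 chromosomes (GRCm38/mm10, the build of the deposited counts, with GENCODE positions). Clec4f spans 83644542 to 83656187 on chromosome 6, Vsig4 96247203 to 96293438 on X, Timd4 46810800 to 46844332 on 11, Cd5l 87357881 to 87371073 on 3, and Marco 120474538 to 120505024 on 1. Adgre1 spans 57358691 to 57483527 on chromosome 17 and Csf1r 61100598 to 61132149 on 18. The C1q chains are neighbours on chromosome 4, with C1qb at 136880129 to 136886187, C1qc at 136889804 to 136893065 and C1qa at 136895917 to 136898803. Csf1r overlaps Mir6983 on its own strand and Hmgxb3 on the other, so its reads could be shared with them. None of the other 9 genes overlaps another gene.

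The 250 bases before the start site were searched for cores of MAF, PU.1 and nuclear receptors, and for the E-box. RefSeq windows (GRCm38.p6) were at hand for 7 of the genes: Marco, Cd5l, C1qb, C1qc, Clec4f, Timd4 and Vsig4. Their start sites are RefSeq's, and those of Clec4f and C1qc lie inside the GENCODE spans given above. The MAF core TGCTGA, read on both strands, occurred in 4 of 7 (Cd5l, C1qb, Clec4f, Timd4) and in 16.1% of 32851 mouse promoters. The nuclear receptor core AGGTCA occurred in 3 of 7 (C1qc, Clec4f, Timd4) and in 14.0% of promoters. The PU.1 motif GAGGAAGT occurred in 1 of 7 (C1qc) and in 2.44% of promoters, and the E-box CACGTG in 0 of 7 and 6.02% of promoters. These letters do not overlap one another in the windows of the genes printed here, and a match is a description of the window, not a binding site. The windows of Marco and Vsig4 held none of these motifs, and that of C1qc lacked the MAF core. Of the 4 windows with the MAF core, those of Cd5l, C1qb and Timd4 are shown as examples with the window of Marco, 5′ to 3′ on the gene's strand, with MAF cores and nuclear receptor cores in capitals.
Cd5l, chr3:87357631-87357880, plus strand: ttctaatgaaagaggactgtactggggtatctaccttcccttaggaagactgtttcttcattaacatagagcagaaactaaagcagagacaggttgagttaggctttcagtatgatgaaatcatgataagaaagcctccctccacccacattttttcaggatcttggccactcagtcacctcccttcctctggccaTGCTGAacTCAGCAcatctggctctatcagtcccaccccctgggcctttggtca
C1qb, chr4:136886201-136886450, minus strand: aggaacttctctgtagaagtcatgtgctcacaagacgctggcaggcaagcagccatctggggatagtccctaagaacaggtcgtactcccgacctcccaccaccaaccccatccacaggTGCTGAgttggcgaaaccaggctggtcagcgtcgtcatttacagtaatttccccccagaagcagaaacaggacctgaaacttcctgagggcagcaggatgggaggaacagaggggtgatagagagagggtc
Timd4, chr11:46810549-46810798, plus strand: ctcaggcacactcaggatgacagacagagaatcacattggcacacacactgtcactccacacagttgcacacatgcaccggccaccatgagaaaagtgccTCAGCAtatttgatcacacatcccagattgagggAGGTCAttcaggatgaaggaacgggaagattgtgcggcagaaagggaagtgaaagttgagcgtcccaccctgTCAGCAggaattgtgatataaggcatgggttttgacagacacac
Marco, chr1:120505025-120505274, minus strand: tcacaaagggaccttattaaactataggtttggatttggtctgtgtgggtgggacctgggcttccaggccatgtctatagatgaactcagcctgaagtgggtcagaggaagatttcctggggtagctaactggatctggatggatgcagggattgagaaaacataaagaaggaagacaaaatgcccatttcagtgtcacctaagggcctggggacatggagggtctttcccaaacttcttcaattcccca
In Cd5l the MAF core stood 54 bases before the start on the gene's strand and again at 46 bases on the other strand. In C1qb it stood at 131 bases. In Timd4 it stood at 150 and 44 bases on the other strand, with the nuclear receptor core at 116 bases. In Clec4f, whose window is not shown, the MAF core stood at 199 bases and the nuclear receptor core at 22 bases on the other strand.

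Library totals were 5005760 to 7160172 counts in p16-3MR mice and 3084517 to 5667904 in wild-type mice. Levels are given as counts per 1000000 after TMM scaling (CPM), on which 3 counts amounted to 0.293 to 0.578 CPM in p16-3MR livers other than GCV female 33, to 2.32 CPM in that liver, and to 0.516 to 0.943 CPM in wild-type livers. All 10 genes were detected in all p16-3MR livers and the 7 readable genes in all wild-type livers, and the lowest value was 9 counts (Vsig4 in liver 33). The hepatocyte genes Alb and Apoa1 were detected in every p16-3MR liver. In wild-type livers 3 of 10 hepatocyte genes were readable (Tat, Ttr and Serpina1c). The library of GCV female 33 stood apart, with 64.0% of its counts on mitochondrially encoded genes against 12.3% to 22.4% in the other p16-3MR livers, with 13409 genes detected and with a TMM factor of 0.259. GCV male 32 and VEH male 24 also differed from the rest: the summed level of 10 hepatocyte genes was 27338 and 44540 CPM there, and 92632 to 161265 CPM in the other 10 livers.

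The sample values of the p16-3MR mice were spread widely. Clec4f, a lectin that in mice is nearly restricted to Kupffer cells, was 152, 51.0 and 39.7 CPM in GCV females (livers 31, 33 and 35) and 107, 217 and 342 CPM in VEH females (27, 28 and 29). It was 431, 1205 and 63.2 CPM in GCV males (30, 32 and 34) and 618, 108 and 63.3 CPM in VEH males (24, 25 and 26). Within each group of males the highest liver was thus far above the lowest, and both groups of males reached above and below every VEH female.

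Vsig4, the complement receptor that catches opsonized bacteria from blood, was 26.99, 6.95 and 16.3 CPM in GCV females and 42.6, 104 and 152 CPM in VEH females. It was 157, 738 and 10.2 CPM in GCV males and 312, 40.0 and 15.6 CPM in VEH males. All VEH females were above all GCV females, while the males overlapped. Timd4, a receptor for phosphatidylserine on dying cells, was 6.55, 16.2 and 3.02 CPM in GCV females, 7.64, 27.6 and 15.7 CPM in VEH females, 48.6, 84.5 and 11.1 CPM in GCV males and 85.0, 10.54 and 3.28 CPM in VEH males. Its groups overlapped in both sexes.

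Cd5l, a secreted protein of tissue macrophages also called AIM, was 85.6, 63.3 and 29.01 CPM in GCV females and 92.6, 311 and 185 CPM in VEH females. In males it was 189, 621 and 39.2 CPM under GCV and 325, 58.4 and 47.5 CPM under VEH. The female groups did not overlap, although livers 31 and 27 were close. Marco, a scavenger receptor for bacteria and particles, was 43.4, 68.0 and 13.9 CPM in GCV females and 24.1, 225 and 17.4 CPM in VEH females. In males Marco was 13.8, 3.12 and 80.3 CPM under GCV and 234, 105 and 11.3 CPM under VEH. Liver 32, highest of all 12 for Clec4f, Vsig4 and Cd5l, was thus the lowest for Marco, with 32 counts.

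The chains of C1q, the molecule that starts the classical complement pathway, varied together. C1qb was 67.5, 44.8 and 22.5 CPM in GCV females, 56.7, 126 and 154 CPM in VEH females, 215, 1010 and 34.4 CPM in GCV males and 399, 44.3 and 31.1 CPM in VEH males. C1qa ranged from 12.9 CPM (liver 35) to 653 CPM (liver 32), and C1qc from 12.8 CPM (liver 26) to 567 CPM (liver 32). For all 3 chains the female groups overlapped through liver 31, which was higher than VEH female 27.

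Adgre1, which encodes the macrophage antigen F4/80, was 7.33, 8.496 and 5.53 CPM in GCV females and 17.6, 47.5 and 32.7 CPM in VEH females. It was 65.0, 177 and 9.41 CPM in GCV males and 108, 14.5 and 9.38 CPM in VEH males. Every GCV female was below every other liver of the table. Csf1r, the receptor for the macrophage growth factors CSF1 and IL-34, was 38.0, 37.1 and 14.6 CPM in GCV females and 41.0, 122 and 150 CPM in VEH females. In males Csf1r was 146, 551 and 20.9 CPM under GCV and 321, 36.6 and 22.8 CPM under VEH. Its female groups were separated by the small gap between livers 31 and 27.

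**Figure D1:**
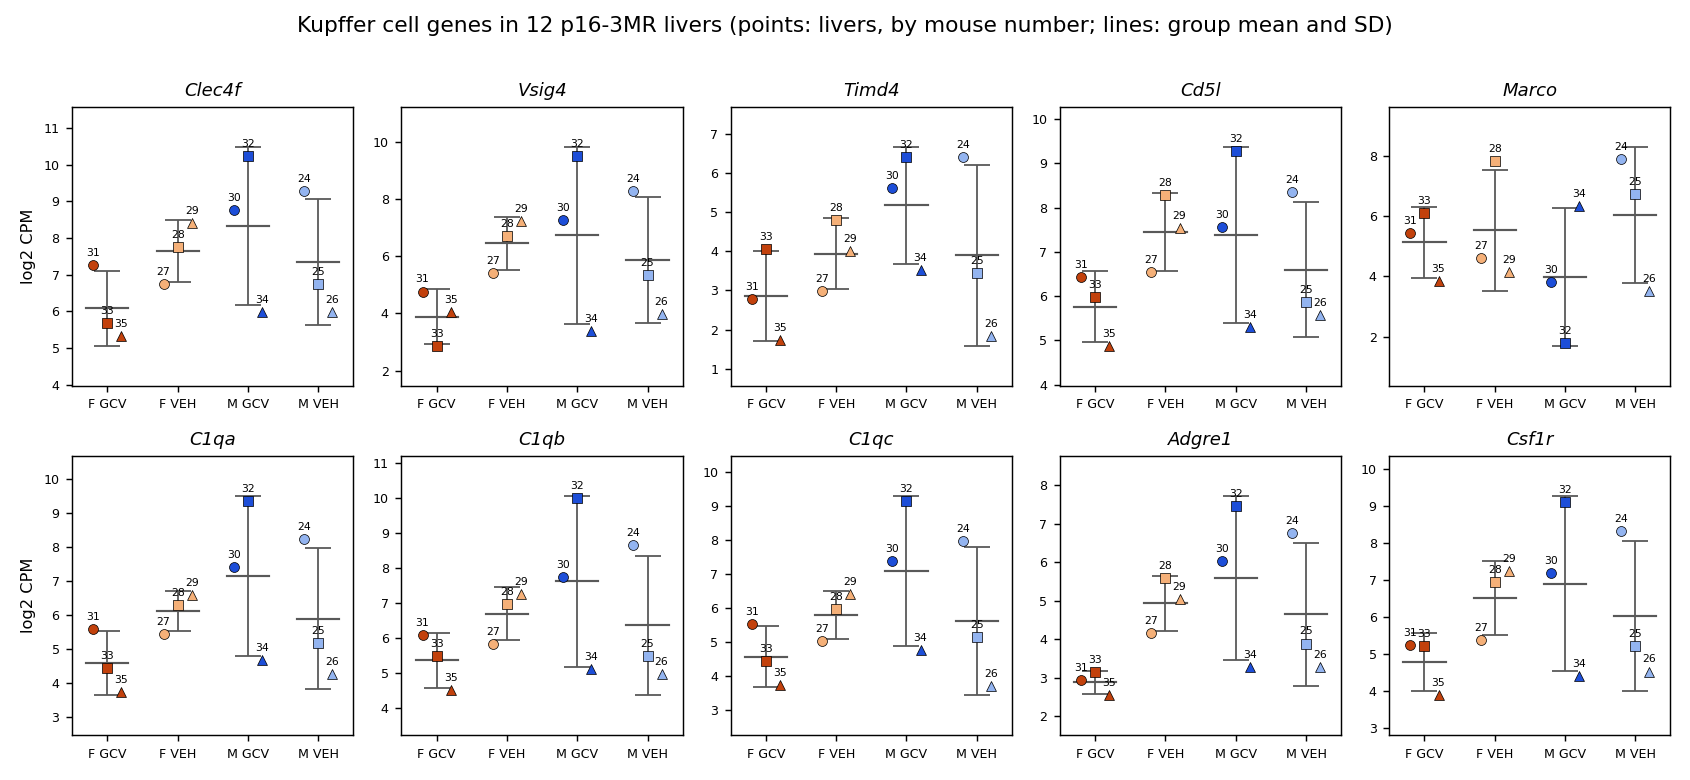
Levels of the 10 Kupffer cell genes in 12 p16-3MR livers, as log2 CPM after TMM scaling, by sex and treatment. Points are livers with their mouse numbers, horizontal lines are group means and bars are SD (n = 3). Livers 32 and 24 are high for 9 genes, and for Marco liver 32 is the lowest.

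By group mean of log2 CPM, 8 of the 10 genes had the order GCV males, VEH females, VEH males, GCV females. For Clec4f these means were 8.33 ± 2.16, 7.64 ± 0.85, 7.34 ± 1.72 and 6.09 ± 1.03 (SD, n = 3), so neighbours in the order lay within the spread of single groups. Cd5l had its highest mean in VEH females (7.45 ± 0.88) and Marco in VEH males (6.04 ± 2.25). The pooled SD within groups was 1.39 to 2.02 on the log2 scale, with a median of 1.66 over the 10 genes. All 10 exceeded 1.37, the upper decile of the 12409 genes with at least 10 counts on average, whose median was 0.612.

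The same livers were high or low for most of the genes. Liver 24 was among the 3 highest livers for 10 of 10 genes, and liver 32 for 9 of 10, being the highest for 8. GCV male 30 was among the 3 highest for 7 genes. GCV female 35 was the lowest liver for 7 genes. After the group means were taken off, the 36 pairs of genes other than Marco had Spearman correlations of 0.74 to 0.99 over the 12 livers (median 0.91), as a description of livers that share their libraries' scaling. C1qb and Clec4f had 0.97 (Pearson 0.98), and C1qa and C1qc had 0.99 for both coefficients. The 9 pairs with Marco had -0.15 to 0.22, and 6 of them were negative.

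Ratios within a liver, which do not depend on its total, showed the same. The log2 ratio of C1qa to C1qb spanned 0.73 from the lowest to the highest of 12 livers, and that of C1qc to C1qb spanned 0.95. Against Clec4f, the log2 ratio of Csf1r spanned 1.54, of Cd5l 1.71, of Vsig4 2.11, of Adgre1 2.14 and of Timd4 2.84. The log2 ratio of Marco to Clec4f spanned 8.87, from -8.46 in liver 32 to 0.41 in liver 33. In wild-type livers this ratio spanned 2.38, and that of C1qa to C1qb 0.58.

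**Figure D2:**
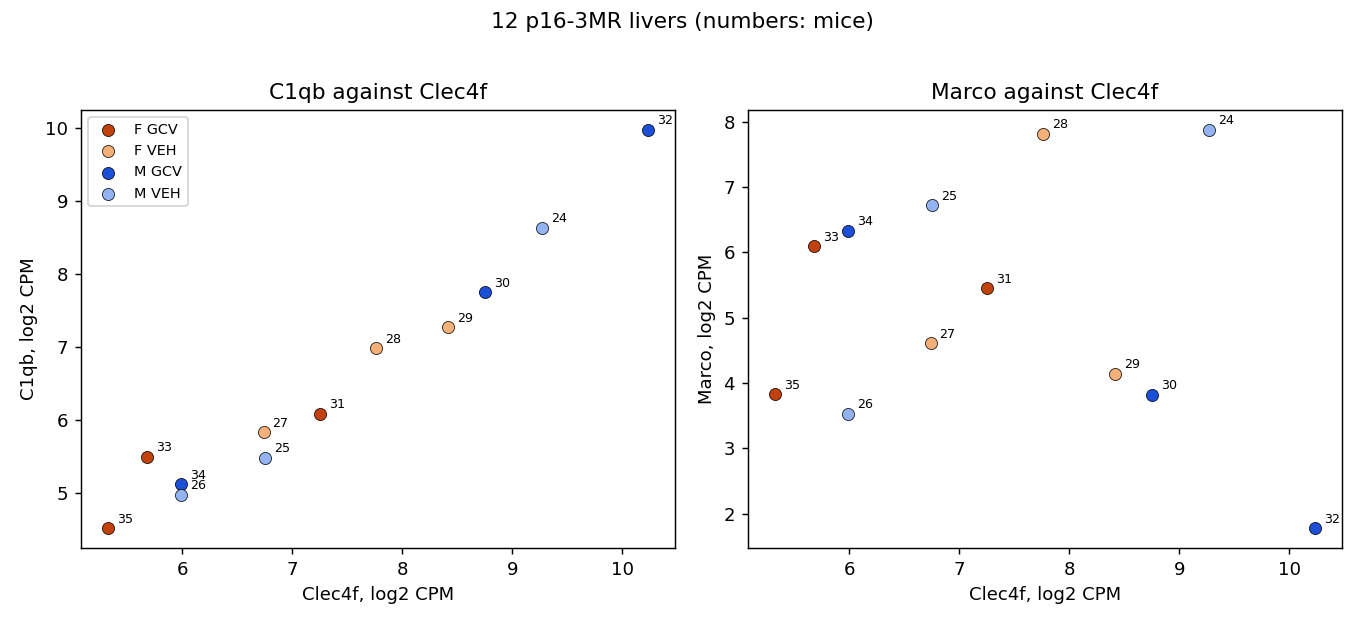
C1qb (left) and Marco (right) against Clec4f in 12 p16-3MR livers, as log2 CPM on both axes. Points are livers, coloured by sex and treatment, with mouse numbers. C1qb is high where Clec4f is high, whereas Marco shows no such order and is lowest in liver 32.

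The first comparison asked whether GCV, which kills p16+ cells, altered these genes in p16-3MR females. All 10 genes were lower in GCV females than in VEH females by the fitted log2 fold change, but none passed an adjusted p under 0.05. The fitted values ran from -2.54 for Vsig4 to -1.11 for Marco, with a median of -1.42, beside a median of 0.00 over all genes, of which 49.8% were lower. Their size depended on scaling: by mean log2 CPM of the 10 genes, GCV minus VEH was -1.51 with TMM factors and -2.34 without them. Adgre1 had the smallest p (log2 fold change -2.22 ± 0.98 SE, 95% interval -4.34 to -0.10, unadjusted p = 0.0411, adjusted p = 0.667 in edgeR's quasi-likelihood test). It was the only gene of the 10 with an unadjusted p under 0.05, a level that 7.37% of all genes reached (2.32% in the lower direction). Over all genes 0% passed the adjusted threshold in edgeR and 0.648% in DESeq2.

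For Vsig4 the log2 fold change was -2.54 ± 1.23 (95% interval -5.19 to 0.11, adjusted p = 0.670 in edgeR). For Csf1r it was -1.81 ± 1.07 (adjusted p = 0.685 in edgeR), and for Cd5l -1.73 ± 0.92 (adjusted p = 0.673). The C1q chains had smaller differences, with -1.39 ± 1.05 for C1qa, -1.32 ± 1.06 for C1qb and -1.15 ± 1.04 for C1qc. Clec4f stood at -1.45 ± 0.99, Timd4 at -1.11 ± 1.04 and Marco at -1.11 ± 1.21. For Adgre1, Vsig4, Csf1r and Cd5l all GCV females were below all VEH females, 4 of 10 genes where 7.35% of all genes did the same.

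These values held their sign for 9 genes whichever liver was left out, but single livers moved their size. Over these fits Clec4f ran from -2.29 (without GCV female 31) to -1.04 (without VEH female 29), and Timd4 from -1.90 (without GCV female 33) to -0.64 (without VEH female 28). C1qa ran from -2.09 to -1.04, C1qb from -1.75 to -0.99 and C1qc from -1.81 to -0.81, each lowest without GCV female 31 and highest without GCV female 35. The ranges were -2.52 to -1.91 for Adgre1, -3.05 to -2.14 for Vsig4, -2.20 to -1.48 for Csf1r and -2.10 to -1.30 for Cd5l. Without liver 33, whose library stood apart, Adgre1 was at -2.41, Vsig4 at -2.27 and Clec4f at -1.28. Marco turned positive, to 0.92, when VEH female 28 was left out, the liver with 225 CPM of this gene. In 180 alternative fits of the 10 genes in females the smallest adjusted p was 0.333.

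In p16-3MR males the fitted log2 fold changes were positive for 9 genes and negative for Marco, and none passed the test (adjusted p = 1 for all 10 in edgeR, and 0 of the 10 at an unadjusted p under 0.05, which 1.91% of all genes reached). Over all genes 0% passed in edgeR and 0.0231% in DESeq2. Values ran from 0.54 ± 0.96 for Timd4 to 1.41 ± 1.06 for C1qb, and Marco was at -1.86 ± 1.22 (95% interval -4.49 to 0.77). The median of all genes was 0.04, and 45.5% of all genes were lower. The groups overlapped for all 10 genes, where 2.83% of all genes had GCV males below VEH males without overlap and 3.57% above. The sign rested on single livers: without GCV male 32 the 9 genes were at -0.67 to -0.12, and without VEH male 24 they were at 2.46 to 3.52. Marco stayed negative in each of these fits, from -3.79 without GCV male 34 to -0.85 without VEH male 24.

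**Figure D3:**
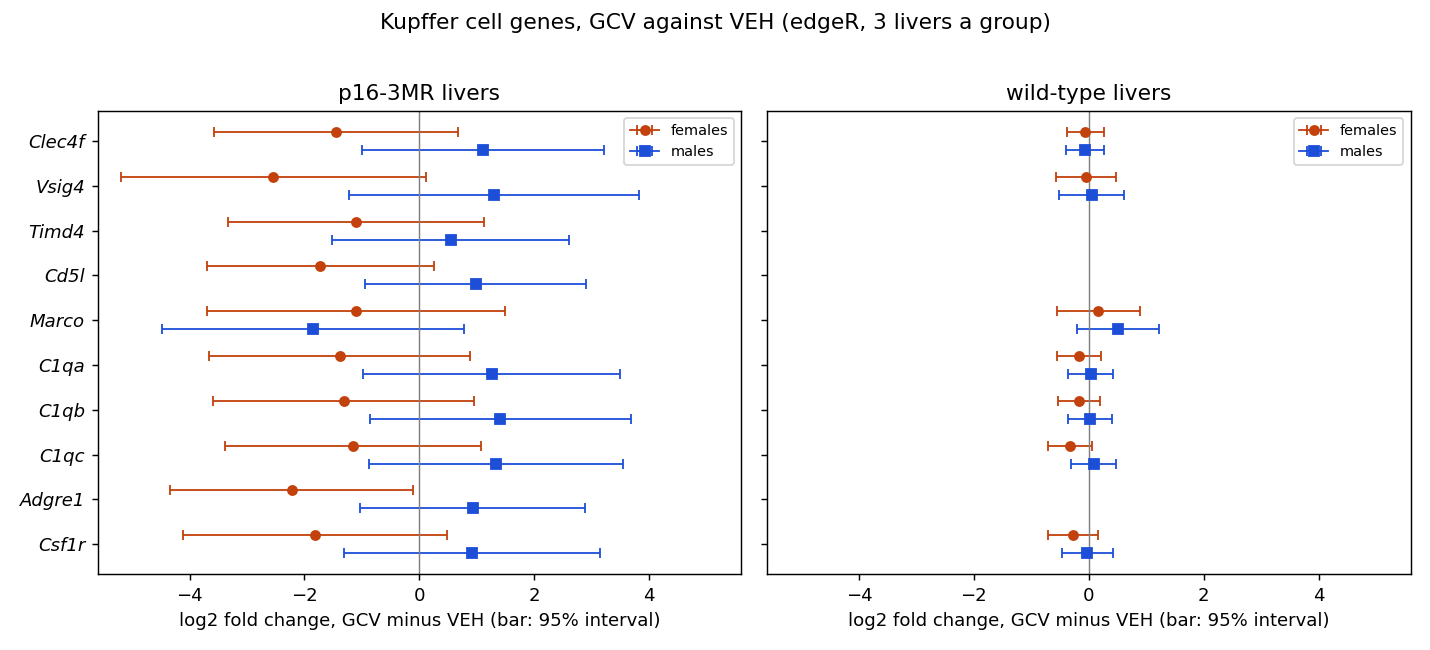
Fitted log2 fold changes of GCV against VEH with 95% intervals, by gene, in females (circles) and males (squares), for p16-3MR livers (left) and wild-type livers (right). Cd5l, Timd4 and Adgre1 were not used in wild-type livers. In p16-3MR females all 10 values lie below 0 and only the interval of Adgre1 leaves out 0, and all wild-type intervals include 0.

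The difference between the sexes in the GCV response was tested as an interaction. It was negative for 9 genes, from -3.84 ± 1.70 for Vsig4 to -1.65 ± 1.41 for Timd4, and 0.75 ± 1.69 for Marco, where 51.6% of all genes were negative. Vsig4 (unadjusted p = 0.0405) and Adgre1 (-3.14 ± 1.34, unadjusted p = 0.0342) were 2 of 10 genes under an unadjusted p of 0.05, where 3.78% of all genes stood. Neither passed after adjustment (adjusted p = 0.976 in edgeR for both). Without GCV male 32 the values were -1.97 for Vsig4 and -1.98 for Adgre1, and without VEH male 24 they were -6.09 and -5.14. This contrast uses the same livers as both treatment comparisons and is not separate evidence.

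Between VEH females and VEH males of the p16-3MR line no gene of the 10 passed the test (adjusted p = 1 for all 10 in edgeR, 0 genes at an unadjusted p under 0.05, beside 0.12% and 2.74% of all genes). The fitted female minus male values ran from -0.96 ± 0.97 for Timd4 to 0.45 ± 0.89 for Cd5l. They were negative for 9 of 10 genes and for 54.3% of all genes, and the groups overlapped for all 10, where 5.13% of all genes were lower and 4.22% higher in females without overlap. For 8 of the 9 genes with a negative fitted value the mean of log2 CPM was higher in females, so the 2 summaries differed in sign. Without liver 24, the fitted value of all 10 genes was positive, from 0.62 for Marco to 1.90 for Cd5l.

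Other genes of Kupffer cells were read in the same females. Of 21 further Kupffer cell genes, 20 were lower in GCV females (median log2 fold change -1.11). Where 2.32% of all genes were lower at an unadjusted p under 0.05, so were 3 of these 21. These were Gfra2 (-2.52 ± 0.78), the haemoglobin scavenger receptor Cd163 (-3.40 ± 1.16) and Tmem26 (-2.84 ± 0.99), with adjusted p of 0.646, 0.647 and 0.647 in edgeR. Of 10 transcription factors of Kupffer cell identity 6 were lower (median -0.23) and none reached an unadjusted p under 0.05. Nearest were Irf8 (-1.24) and Zeb2 (-1.01), which were lower, and Id3 (0.54), which was higher. Maf, which binds the MAF core shown in the windows, was 57.5, 105 and 23.0 CPM in GCV females and 42.1, 56.0 and 55.8 CPM in VEH females, so its groups overlapped, and it reached 331 CPM in liver 32 and 166 CPM in liver 24 (this factor was picked for the motif after its values were seen). Among 10 genes of niche signals 7 were lower (median -0.71), and Rbpj, the nuclear effector of Notch, had an unadjusted p under 0.05 (-0.75 ± 0.32, adjusted p = 0.667 in edgeR).

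Genes for taking up dying cells were lower for 9 of 10 (median -0.92, none at an unadjusted p under 0.05, with Axl nearest), and genes of C1 partners for 7 of 12 (median -0.34, none). No gene of these lists passed an adjusted p under 0.05 in any p16-3MR comparison by edgeR.

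Markers of other cells were read in the same livers, and none passed an adjusted p under 0.05 in edgeR. Genes of macrophages in general were lower in GCV females for 12 of 12 (median -1.19), at a summed level of 187 to 342 CPM in GCV females and 389 to 1129 CPM in VEH females. Over all genes 2.32% were lower in GCV females at an unadjusted p under 0.05. Sinusoidal endothelial genes were lower for 10 of 11 (median -1.01), 5 of them at an unadjusted p under 0.05, led by Ptprb (-1.45 ± 0.40), Gpr182 (-1.07 ± 0.33) and Oit3 (-1.31 ± 0.48). Their summed level was 162.5 to 239 CPM in GCV females and 230 to 417 CPM in VEH females. Lymphocyte genes were lower for 8 of 10 (median -1.49), 3 of them at an unadjusted p under 0.05 (Cd79a at -2.86 ± 0.83, Ms4a1 at -2.52 ± 0.84 and Cd3g at -2.45 ± 1.12). Their summed levels overlapped, at 13.9 to 54.8 CPM in GCV females and 14.7 to 91.1 CPM in VEH females, the highest in VEH female 29. Lower fitted values in GCV females thus also appeared in lists of other cells, whose part in the values of the 10 genes was not tested.

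Of the remaining lists in females, monocyte and neutrophil genes were lower for 9 of 10 (median -0.45), stellate cell genes for 7 of 10 (median -0.32), lipid-associated macrophage genes for 4 of 8 (median -0.02), hepatocyte genes for 5 of 10 (median -0.05) and cholangiocyte genes for 1 of 6 (median 1.03). In these lists 1 gene had an unadjusted p under 0.05, Sox9 (2.10 ± 0.62, adjusted p = 0.646 in edgeR). Summed levels of hepatocyte genes were 113741 to 161265 CPM in GCV females and 96849 to 129124 CPM in VEH females. Among the markers of other cells in these 6 livers, Cd14, Itgax and 4 of 6 cholangiocyte genes were at 0 in liver 33, Chil3 and Retnlg in liver 35, Chil3 and Nkg7 in liver 27, and Cftr also in livers 35, 27 and 28.

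In p16-3MR males the lists of immune cells were higher under GCV by fitted value: macrophage genes for 12 of 12 (median 1.32), monocyte and neutrophil genes for 10 of 10 (median 1.40), lymphocyte genes for 10 of 10 (median 1.02), lipid-associated macrophage genes for 8 of 8 (median 0.81), Kupffer cell factors for 10 of 10 (median 0.68), further Kupffer cell genes for 17 of 21 (median 0.80) and uptake genes for 9 of 10 (median 0.75). Of these lists only Gpnmb had an unadjusted p under 0.05 (1.88 ± 0.86). The groups overlapped for all 12 macrophage genes, while 3 of 10 lymphocyte genes lay above VEH males without overlap, as did 3.57% of all genes. Relative to each gene's mean over the 12 livers, macrophage genes had medians of 1.16, 3.10 and -1.19 in GCV males (30, 32 and 34). These medians were 1.93, -0.90 and -1.56 in VEH males (24, 25 and 26). Hepatocyte genes were lower for 8 of 10 (median -0.21) and sinusoidal endothelial genes for 9 of 11 (median -0.25). Cholangiocyte genes were higher for 6 of 6 (median 1.80), 3 of them at an unadjusted p under 0.05, which 1.91% of all genes reached. Higher too were stellate cell genes for 7 of 10 (median 0.38), C1 partners for 9 of 12 (median 0.26) and niche signals for 5 of 10 (median 0.24). Among the stellate cell genes Col1a1 had an unadjusted p under 0.05 (3.34 ± 1.09), among the C1 partners Cd93 (2.82 ± 1.08) and among the sinusoidal endothelial genes Ptprb (-0.87 ± 0.40). Every adjusted p in these lists was 1 in edgeR.

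Livers 32 and 24 had the highest medians of the macrophage and the monocyte and neutrophil lists. Relative to each gene's mean over 12 livers, macrophage genes had a median of 3.10 in liver 32 and 1.93 in liver 24 on the log2 scale, against -1.66 to 1.16 in the other 10. Monocyte and neutrophil genes had 2.38 and 1.73, against -2.20 to 1.40, although by summed level VEH female 28 was above liver 24 for them (413 against 320.3 CPM). Lymphocyte genes had 1.21 in liver 32 and 0.74 in liver 24, below the 1.57 of VEH female 29, and lipid-associated macrophage genes had 1.58 and 0.71, below the 1.67 of GCV male 30. Hepatocyte genes had -1.93 in liver 32 and -0.82 in liver 24, the latter no lower than liver 33, against -0.82 to 0.72 in the other 10. TMM factors, which scale a library for its composition, were 1.80 and 1.64 there. Whether the makeup of the tissue piece has a part in the levels of the Kupffer cell genes was not tested.

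**Figure D4:**
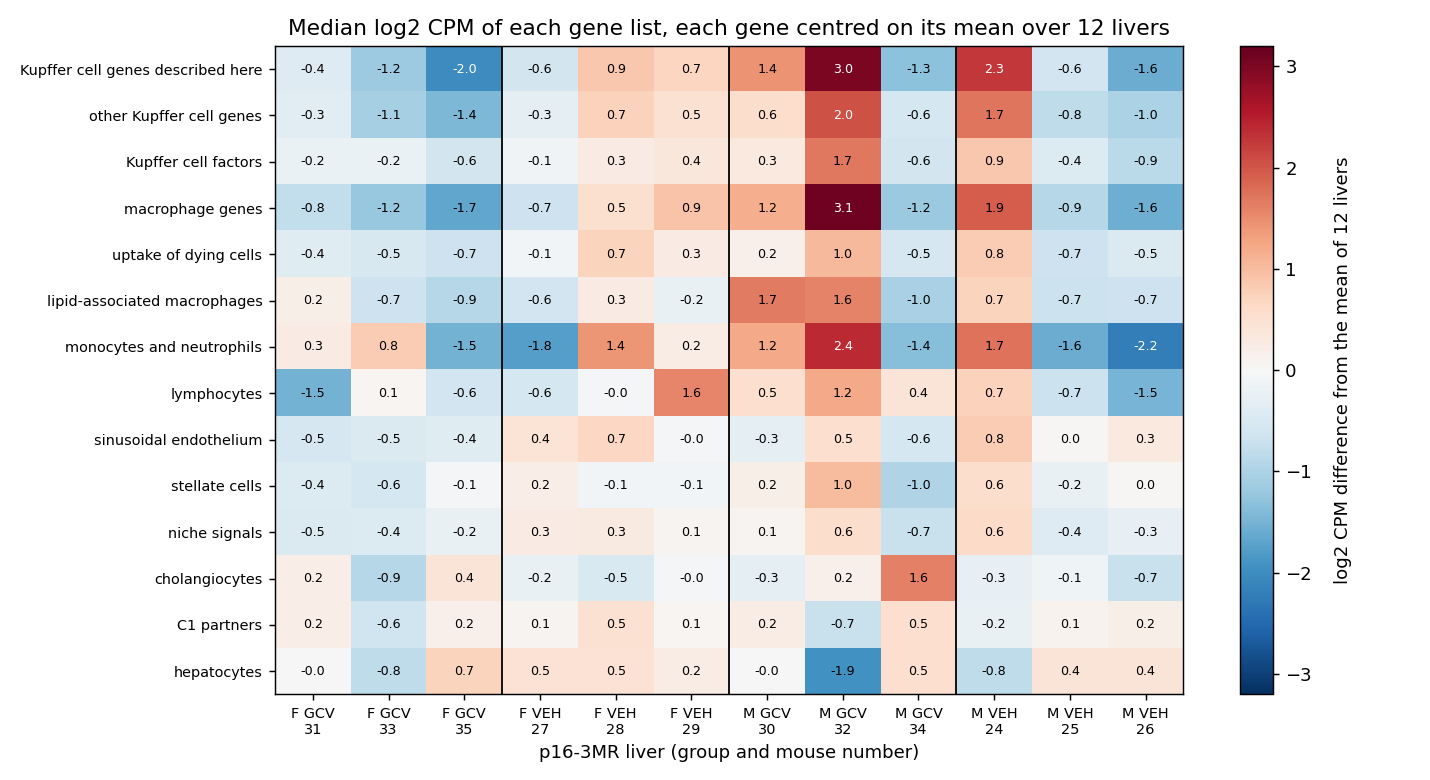
Median log2 CPM of 14 gene lists in 12 p16-3MR livers, with each gene centred on its mean over the 12 livers. Columns are livers by group, rows are lists, and colours and printed values are log2 differences. Livers 32 and 24 are high for Kupffer cell, macrophage and monocyte lists and liver 32 is the lowest for hepatocyte genes. GCV females are below 0 for the Kupffer cell lists, and so are VEH female 27, GCV male 34 and VEH males 25 and 26.

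The genes whose pattern over the 12 p16-3MR livers was most like the mean of the 10 genes, after group means were taken off, were Pirb (Spearman 1), Cd300e (0.99), Daxx, Ncf1, Ccl6, Rgs2, Slfn2, Mndal and Bin2 (0.99 each), and Gpr65 (0.98). Of 12399 genes, 254 had a correlation of 0.9 or more, and the median over them all was -0.05. Clec4f itself had 0.98, Csf1r 0.95 and Timd4 0.87, and Marco 0.06.

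In wild-type mice, which lack the thymidine kinase, 6 of the 7 readable genes had a highest liver 1.85 to 2.64 times the lowest, and Marco one of 4.803 times. Clec4f was 95.3, 88.9 and 90.1 CPM in GCV females (livers 4, 5 and 6), 70.7, 115 and 100.2 CPM in VEH females (4, 5 and 6), 78.6, 62.6 and 85.8 CPM in GCV males (1, 2 and 3) and 89.7, 77.2 and 69.5 CPM in VEH males (1, 2 and 3). Its highest liver was 1.85 times the lowest, against 30.3 times in p16-3MR mice, which differ also in age, length of treatment and batch. Marco was 11.97, 12.7 and 6.56 CPM in GCV females, 8.43, 14.2 and 4.70 CPM in VEH females, 11.9, 10.46 and 22.6 CPM in GCV males and 10.9, 9.62 and 10.6 CPM in VEH males. The GCV and VEH groups overlapped in both sexes for both genes.

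Vsig4 was 25.3, 25.3 and 24.98 CPM in GCV females, 23.9, 24.6 and 29.6 CPM in VEH females, 21.4, 11.5 and 22.9 CPM in GCV males and 26.9, 15.5 and 11.2 CPM in VEH males. Its 6 female livers lay within 23.9 to 29.6 CPM, and 5 of 6 male livers were below them. The other readable genes ranged from 32.2 to 63.3 CPM for C1qb, 48.4 to 95.3 CPM for C1qa, 34.97 to 72.6 CPM for C1qc and 20.3 to 40.7 CPM for Csf1r. The pooled SD within groups was 0.24 to 0.54 on the log2 scale with a median of 0.301, beside a median of 0.254 over 8613 genes, and Marco alone of the 7 was above their upper decile of 0.525. Pairs of genes other than Marco had Spearman correlations of 0.57 to 0.92 over 12 livers (15 pairs), and the 6 pairs with Marco had 0.20 to 0.48.

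**Figure D5:**
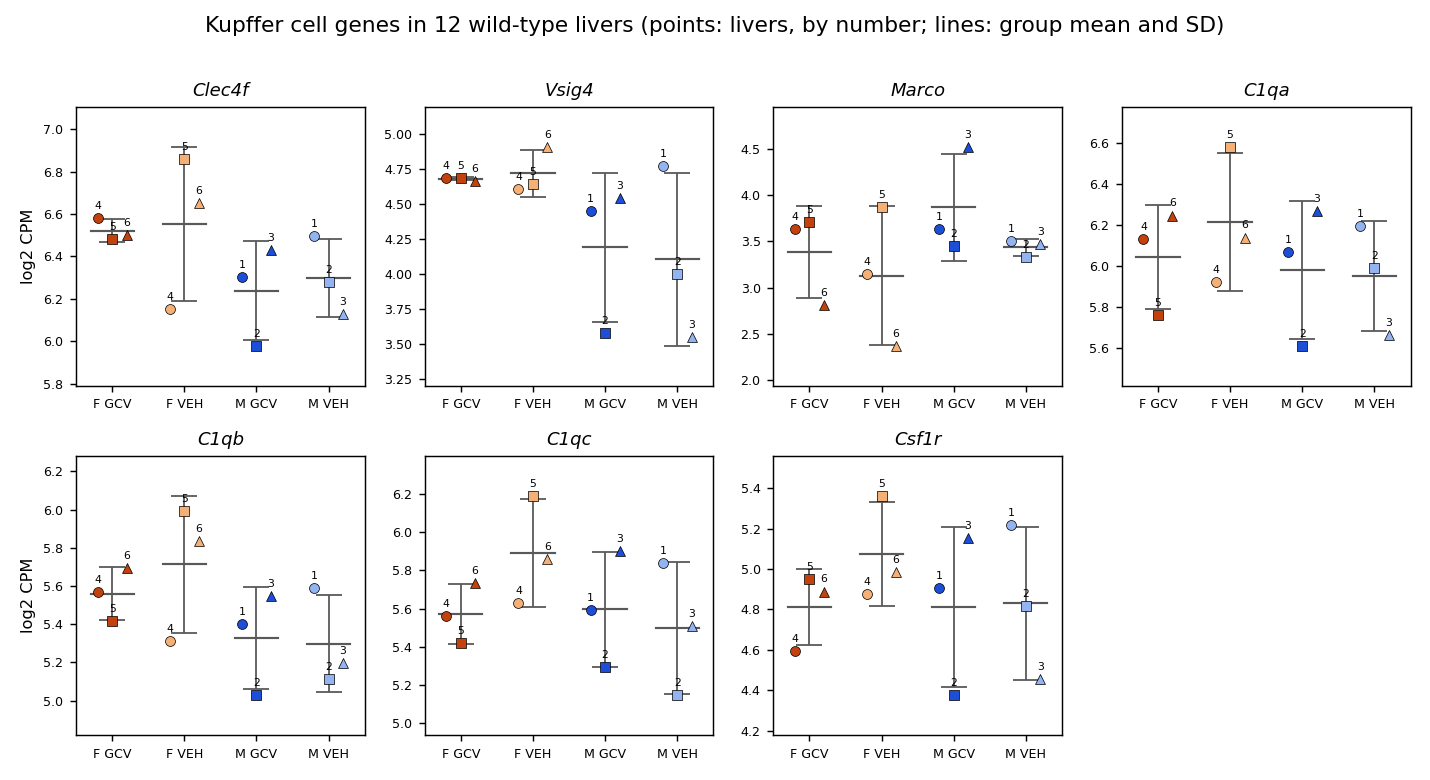
Levels of the 7 readable Kupffer cell genes in 12 wild-type livers, as log2 CPM after TMM scaling, by sex and treatment. Points are livers with their label numbers, horizontal lines are group means and bars are SD (n = 3). The groups overlap for every gene in GCV against VEH, and Vsig4 is lower in 5 of 6 male livers than in every female liver.

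GCV had no effect past the threshold on these genes in wild-type mice. In females the log2 fold changes were -0.33 ± 0.18 for C1qc, -0.27 ± 0.21 for Csf1r, -0.17 ± 0.19 for C1qa, -0.17 ± 0.18 for C1qb, -0.06 ± 0.16 for Clec4f, -0.04 ± 0.25 for Vsig4 and 0.17 ± 0.35 for Marco. The 95% interval was -0.38 to 0.27 for Clec4f and -0.71 to 0.05 for C1qc, and it was wider for Vsig4 (-0.56 to 0.48) and Marco (-0.56 to 0.89). In males they ran from -0.06 ± 0.16 for Clec4f to 0.09 ± 0.19 for C1qc, with Marco at 0.51 ± 0.34 (95% interval -0.20 to 1.22) and a 95% interval of -0.51 to 0.62 for Vsig4. Adjusted p was 1 for all 7 genes in females and 0.889 to 1 in males by edgeR, and 0 genes had an unadjusted p under 0.05 in either sex, a level that 4.56% of all genes reached in females and 5.06% in males. The difference between the sexes ran from -0.42 ± 0.26 (C1qc) to 0.00 ± 0.22 (Clec4f), with adjusted p of 0.982 to 1 and 0 of 7 genes at an unadjusted p under 0.05, beside 4.45% of all genes. Negative values were held by 6 of 7 genes in females, 2 of 7 in males and 6 of 7 in the difference, and by 49.5%, 47.6% and 50.9% of all genes. The groups overlapped for all 7 genes in both sexes, where 4.95% of all genes lay below and 5.05% above without overlap in females, and 4.37% and 4.48% in males.

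Between the sexes, 6 of 7 genes were higher in VEH females than in VEH males and 3 had an unadjusted p under 0.05, a level that 15.2% of all genes reached (7.97% in this direction). Vsig4 was 0.56 ± 0.26 higher on the log2 scale (adjusted p = 0.301), C1qb 0.43 ± 0.18 (adjusted p = 0.239) and C1qc 0.39 ± 0.18 (adjusted p = 0.310), none past the threshold in edgeR, which 3.82% of all genes passed. Without VEH male 1, Vsig4 was 0.96 higher and passed (adjusted p = 0.0170). Clec4f was 0.28 ± 0.16 higher, C1qa 0.28 ± 0.19 and Csf1r 0.24 ± 0.21, and Marco stood at -0.19 ± 0.35. The groups overlapped for all 7, where 8.69% of all genes were lower and 9.82% higher in females without overlap, and 46.5% of all genes had a negative fitted value.

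Of the same gene lists, 15 of 21 further Kupffer cell genes, 5 of 12 macrophage genes and 3 to 6 genes of each of the other lists were readable in wild-type livers. Under GCV, further Kupffer cell genes were lower for 6 of 15 in females and 8 of 15 in males, and macrophage genes for 4 of 5 and 3 of 5. Fabp5, a fatty acid binding protein of lipid-associated macrophages and other cells, fell in GCV females (log2 fold change -1.70 ± 0.24, adjusted p = 0.00927 in edgeR), the 1 gene of the table that passed there (0.00791% of all genes). It did not pass there under edgeR's filter on low counts (adjusted p = 0.126), nor without GCV female 5 (0.0662), GCV female 6 (0.0913) or VEH female 6 (0.0541). It was 1.65 ± 0.24 higher in VEH females than in VEH males (adjusted p = 0.000117), and 0.52 higher averaged over both treatments (adjusted p = 0.0638). The difference between the sexes in its GCV response was -2.26 ± 0.34 (adjusted p = 0.0197 in edgeR), a call lost in 9 of 18 alternatives at adjusted p of 0.0539 to 0.222: DESeq2, the filter, and each fit without GCV female 4, 5 or 6, VEH female 6, GCV male 1 or 3, or VEH male 3. Between VEH livers, Gas6, a bridge to phosphatidylserine on dying cells, was 1.23 ± 0.22 higher in females (adjusted p = 0.000917), and the hepatocyte gene Serpina1c was at -0.76 ± 0.10 (adjusted p = 1.9e-05 in edgeR). The macrophage genes as a list were higher in VEH females for 5 of 5 (median 0.31), with Lyz2 at 0.44 ± 0.16 (unadjusted p = 0.0110, adjusted p = 0.150 in edgeR).

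The genes most like the mean of the 7 readable genes over the 12 wild-type livers were Etnk2, Ttc38, Prodh, Pxmp2, Tlcd2, Pxylp1, Tmem176b, H2-D1, Hgd and Cd68, with Spearman correlations of 0.94 to 0.98. Of 8606 genes, 65 had a correlation of 0.9 or more, and the median over them all was -0.02. The 7 genes themselves had from 0.40 for Marco to 0.94 for C1qa, with Vsig4 at 0.83.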

How the data were processed

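Livers of 24 mice were analysed as bulk RNA-seq, 12 p16-3MR and 12 wild-type, in 2 tables. Per the labels and the study's methods, the authors ran FastQC 0.11.9, Trim Galore 0.6.10 and Salmon 1.10.3 (mm10), summed transcripts to genes with tximport, dropped genes below 3 reads, and the authors' deposited values are estimated counts in whole numbers, with 1 column per liver. Columns were matched to samples by title.

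Wild-type gene labels lack 9 letters; 10496 of 12643 labels matched exactly 1 GENCODE symbol and were used by name, but all rows entered the fits.

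Each table was fitted apart with edgeR 4.0.16 (R 4.3.3), by TMM scaling and quasi-likelihood tests on all genes and 12 livers with a mean per group of sex and treatment. P-values were adjusted by Benjamini-Hochberg over all genes of the table, with a threshold of 0.05. CPM values are counts per 1000000 after TMM scaling, and log2 CPM has a prior count of 2. Where the text gives ± beside a log2 fold change it is the SE, and elsewhere the SD. The scripts were tested on simulated data. Alternatives used DESeq2 1.42.0, limma 3.58.1, other scalings and filters, and fits without 1 liver at a time.

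The 10 genes and the gene lists were chosen with earlier results of these data known. By the rule for named genes, these are the 10 genes, list genes past the threshold, up to 3 genes with the lowest unadjusted p in a list, and the 10 genes most like their mean by Spearman correlation among genes with a mean of at least 10 counts. Genes named as a check of tissue, for a motif or as at 0 were added after their values were seen. Where nothing in the labels says that livers were processed apart, p-values measure only the spread between these samples. Promoter sequences are RefSeq's.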

Additional observations from a re-analysis of the deposited data

How the results depend on the processing

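In p16-3MR females 0 genes passed in edgeR, against 86 in DESeq2, 7 in limma-voom with sample quality weights and 3 with only the 6 livers compared. In p16-3MR males 0 passed, against 5 in DESeq2 and 145 in limma-voom, and for the difference between the sexes 0 passed, against 3 and 1. Between VEH livers of the sexes 26 passed, against 99 in DESeq2, 154 in limma-voom, 59 with only 6 livers and 66 averaged over both treatments. In wild-type females 1 passed, against 17 in DESeq2, 3 in limma-voom, 44 with only 6 livers, 2 at an adjusted p under 0.1 and 0 under edgeR's filter on low counts. In wild-type males 0 passed, against 1 in DESeq2. The difference between the sexes had 1 in wild-type mice and 0 under the filter, and the VEH livers had 483, and 1004 averaged over treatments. Without 1 liver these counts were 0 to 1 in p16-3MR females and in p16-3MR males and 17 to 35 between p16-3MR VEH livers, and in wild-type mice 0 to 12 in females, 0 to 46 in males, 0 to 17 for the difference and 319 to 716 between VEH livers. The cause was not tested.

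None of the 10 genes passed an adjusted p under 0.05 in a p16-3MR comparison under any alternative run, the lowest being 0.0937 in males, 0.215 for the difference between the sexes, 0.333 in females and 0.429 between VEH livers. Signs between VEH females and VEH males turned positive in limma-voom, which weights livers by quality, to 0.96 for Adgre1, 0.91 for Clec4f, 1.243 for Csf1r, 0.94 for C1qa, 0.88 for C1qc, 1.08 for C1qb, 1.32 for Vsig4 and 0.75 for Timd4, and Cd5l was -0.90 averaged over treatments. In wild-type livers limma-voom gave 0.011 for Clec4f and 0.12 for Csf1r in males, and -0.037 for Clec4f in the difference between the sexes. Without TMM factors the mean log2 CPM of the genes was 3.88 in p16-3MR GCV females, against 4.59 with them, a group that holds liver 33 with its factor of 0.259. It was 6.23 against 6.11 in p16-3MR VEH females, so GCV minus VEH was -2.34 against -1.51, and it was 6.93 against 6.60 in GCV males, 6.11 against 5.83 in VEH males and 5.38 against 5.23 in wild-type GCV females.

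Leaving out 1 liver at a time turned the sign of these log2 fold changes. In p16-3MR females this was Marco, from -1.71 to 0.92. In p16-3MR males the ranges were Adgre1 -0.31 to 2.86, Clec4f -0.15 to 2.77, Cd5l -0.39 to 2.46, Csf1r -0.67 to 3.06, C1qa -0.34 to 3.41, C1qc -0.12 to 3.44, C1qb -0.41 to 3.52, Vsig4 -0.62 to 3.49 and Timd4 -0.21 to 2.85. For the p16-3MR difference between the sexes this was Marco, from -0.31 to 2.82, and between p16-3MR VEH livers the ranges were Adgre1 -0.92 to 1.46, Clec4f -0.72 to 1.39, Cd5l -0.046 to 1.90, Csf1r -0.78 to 1.83, Marco -2.49 to 0.62, C1qa -1.21 to 1.42, C1qc -1.27 to 1.33, C1qb -0.98 to 1.59, Vsig4 -0.82 to 1.86 and Timd4 -1.49 to 1.31. In wild-type females they were C1qa -0.31 to 0.034, Clec4f -0.24 to 0.10, Marco -0.13 to 0.61 and Vsig4 -0.10 to 0.057, in wild-type males C1qb -0.091 to 0.18, C1qa -0.12 to 0.21, C1qc -0.077 to 0.27, Clec4f -0.16 to 0.060, Csf1r -0.21 to 0.19 and Vsig4 -0.20 to 0.45, for the wild-type difference Clec4f -0.18 to 0.16, Marco -0.64 to 0.097 and Vsig4 -0.49 to 0.16, and between wild-type VEH livers Marco -0.63 to 0.11. Vsig4 between wild-type VEH livers stayed positive, at 0.30 to 0.96, and passed without VEH male 1.

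Replicate numbers are shared by GCV and VEH wild-type livers, and whether they pair the samples cannot be settled from these livers. Same-numbered livers had correlations of -0.0188, -0.0260 and 0.0267 in females and 0.11, 0.158 and -0.0176 in males after group means were taken off. Differently numbered livers had -0.0372 to 0.0518 in females and -0.1945 to 0.0829 in males. With the replicate number as a block, 106 genes passed in wild-type females, 68 in males and 79 for the difference, and the lowest adjusted p of the 7 genes was 0.749. For the p16-3MR livers, no paired analysis was possible because their groups share no numbers. With 3 livers a group and a coefficient of biological variation of 55.8% in p16-3MR livers, against 16.6% in wild-type livers, the 95% intervals of the p16-3MR log2 fold changes were wide, as from -4.34 to -0.10 for Adgre1 in females. The lowest count of any of the 10 genes was 9.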
